A study of Homo sapiens with 6 samples.

Results

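The peaks described here are those N6-methyladenosine (m6A) peaks whose 3' border is exactly the last base of the gene they were assigned to, called end peaks. A peak on a plus-strand gene was taken when its last base was the annotated gene end, and a peak on a minus-strand gene when its lowest coordinate was the annotated gene start coordinate, which is the 3' end of that gene. Peaks that also began at the gene's 5' end, and so covered the whole gene, were left out (297 in the DMSO list and 305 in the FB23-2 list). The rule took 7299 of 42813 peaks in the DMSO list, or 17.0% (exact 95% interval 16.7 to 17.4), and 6987 of 41838 in the FB23-2 list, or 16.7% (16.3 to 17.1). No gene had more than 1 end peak in a list.

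The cells were MHCC97H, a human line derived from hepatocellular carcinoma. They were profiled by MeRIP-seq, in which fragmented RNA is pulled down with an m6A antibody and sequenced beside input RNA. The FB23-2 group received 2 µM FB23-2, an inhibitor of the m6A demethylase FTO, for 48 h, and the control group is labelled DMSO. Each group had 3 samples of this 1 line, and poly(A) RNA was used in both. The deposited peak tables name no sample, so each treatment has 1 pooled list: no value has a replicate check, nothing below was tested against the spread between samples, and read depth is unknown. Intervals cover the counting of peaks only.

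m6A is written on mRNA by a methyltransferase complex built around METTL3 and METTL14, is removed by FTO and ALKBH5, and is read by YTH-domain and other RNA-binding proteins. In mammalian mRNA it is known to lie mostly near stop codons and along 3' UTRs. The last base of an annotated gene is, for most mRNAs, the site at which the transcript is cut and polyadenylated, usually a short distance after a poly(A) signal such as AATAAA or ATTAAA.

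The border that all end peaks share can be shown at sequence level for 43 of the 7715 genes with an end peak in either list, because their last 30 bases lie inside the RefSeq promoter window of a neighbouring gene (build GRCh38.p14). These are genes with a close neighbour and not a sample of all members. The following are the last 30 bases of 8 of them, 5' to 3' on the strand of the gene, with the poly(A) signal in capitals where one is present; the last letter is the shared 3' border of the peak.
KMT2D: acgacaAATAAAaaaagaacattttaaata
E2F4: tcaagtgAATAAAaaccatgcctaaggcta
ATP6V0C: agctgtgtccAATAAAgttcttggatgtga
VARS1: atggcagcAATAAAatattttcccacaaaa
CTNNBIP1: gaaattaacAATAAAgaattttcataggtt
RXRB: gctttcaaATTAAAatcgctgttttctgga
TPM3: gaagaaATTAAAgggttttttttagacttt
PSMB7: taaaaaacaaaaaccaaattgggcagctga

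These stretches lie at chr12:49018978-49019007 (KMT2D, a histone methyltransferase, minus strand), chr16:67198889-67198918 (E2F4, a transcription factor, plus), chr16:2520189-2520218 (ATP6V0C, a proton pump subunit, plus), chr6:31777518-31777547 (VARS1, a tRNA synthetase, minus), chr1:9848276-9848305 (CTNNBIP1, an inhibitor of beta-catenin, minus), chr6:33193588-33193617 (RXRB, a nuclear receptor, minus), chr1:154155304-154155333 (TPM3, a tropomyosin, minus) and chr9:124353465-124353494 (PSMB7, a proteasome subunit, minus). All 8 genes had an end peak in both lists. KMT2D had log2 folds of 2.39 in the DMSO list and 2.54 in the FB23-2 list, E2F4 1.93 and 1.81, and VARS1 1.98 and 1.64. The log2 fold of a peak is the authors' own value, read here as immunoprecipitate over input, and is used only within a list.

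On the gene's strand, AATAAA was found in 19 of the 43 stretches (44.2%, 29.1 to 60.1), and ATTAAA without AATAAA in 4 more, so that 23 (53.5%, 37.7 to 68.8) held one of these letters. The median distance from the end of the signal to the gene end was 16 bases. On the other strand, where AATAAA would read TTTATT, while ATTAAA would read TTTAAT, a match was found in 2 of the 43. Of 351160 stretches of 30 bases cut from all RefSeq promoter windows, 1.53% held AATAAA or ATTAAA. Another 72 such stretches came from genes with a peak but no end peak, and none ending 1 to 9 bases short of the gene end. Genes with a peak over the whole gene were not left out of this group. Of the 72 stretches, 23 (31.9%, 21.4 to 44.0) held a signal, and the intervals overlap. A match is a description of these letters and no test of use.

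GGACT, a common form of the m6A consensus, could be searched in 4593 bases of DMSO end peaks lying in 42 such windows. It occurred 3 times, in TAF6L, AP005329 and SYMPK, and its other-strand form AGTCC also occurred 3 times. All promoter windows held 0.991 GGACT per 1000 bases, against 0.653 in these stretches. The match in TAF6L, which encodes a histone acetyltransferase subunit, lay 69 bases before its gene end, at chr11:62787257-62787286 on the plus strand, and is shown with the match in capitals.
TAF6L: gtgggcgctctcGGACTactcgctgtactt

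The position of the border depended on the strand, and this bears on every count of end peaks. Minus-strand genes held 4479 end peaks in the DMSO list and plus-strand genes 2820, with 4289 and 2698 in the FB23-2 list. On the minus strand, 6227 of the 6289 3' borders within 500 bases of a gene end lay at a multiple of 25 bases from it in the DMSO list and 6053 of 6114 in the FB23-2 list. On the plus strand the shares were 47.7% and 47.4%. These counts include borders at the gene end itself, whole-gene peaks among them. Such borders made up 2970 of the 3038 plus-strand multiples in the DMSO list and 2846 of 2916 in the FB23-2 list. For the minus strand the numbers were 4626 of 6227 and 4446 of 6053, so a step of 25 bases away from the gene end was seen there only. On the plus strand a further 1711 DMSO and 1647 FB23-2 peaks ended 1 to 9 bases short of the gene end, where the minus strand had 2 and 0.

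With borders 0 to 9 bases from the end counted together, the strands were nearly even. The DMSO list then held 4681 plus-strand and 4628 minus-strand peaks, and 57.1% and 58.1% of the genes with a peak on each strand had one. The plus-strand peaks just outside the rule resembled those just inside: in the DMSO list their median log2 fold was 1.62 against 1.56, and their median span 375 against 367 bases. In the FB23-2 list the medians were 1.57 against 1.53 and 350 against 345.5 bases. ALKBH5 and YTHDF2, described further on, are outside the rule by 1 and 4 bases.

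**Figure D1:**
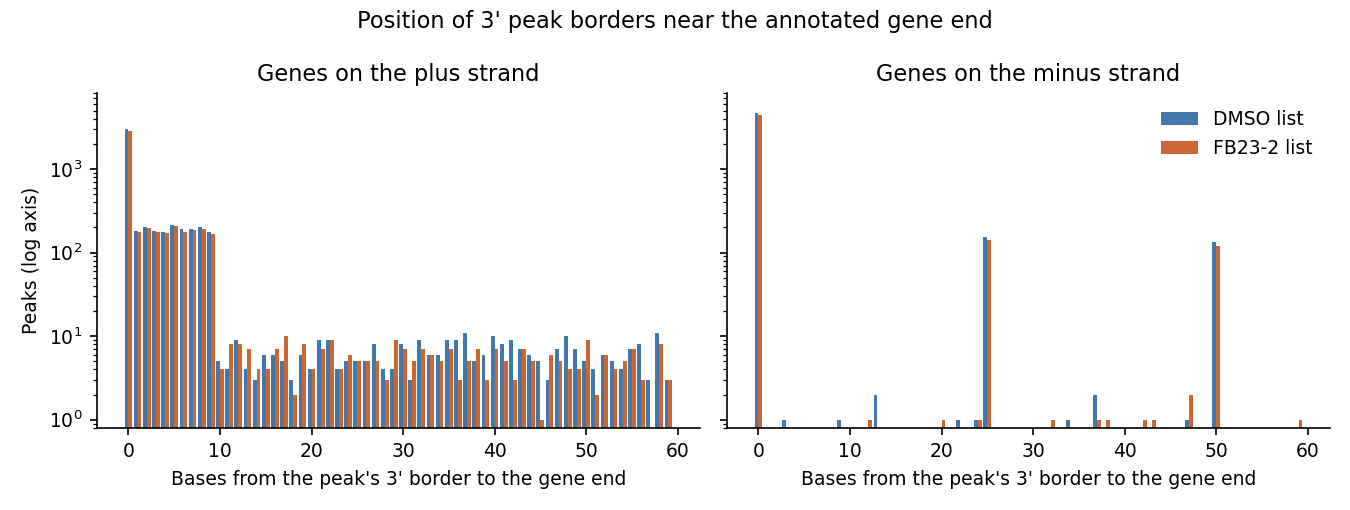
Number of peaks (log axis) by the distance from the peak's 3' border to the annotated gene end, 0 to 59 bases, for plus-strand and minus-strand genes; bars stand for the DMSO and FB23-2 lists. Minus-strand borders sit at 0, 25 and 50 bases, with 4626, 154 and 134 DMSO peaks including those that cover a whole gene, and plus-strand borders spread over 0 to 9 bases.

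The gene end was the most frequent place for a peak to stop. In the DMSO list 10225 peaks ended within the first 100 bases before the gene end, against 672 in the next 100 bases and 588 between 500 and 600 bases. In the FB23-2 list the same numbers were 9806, 671 and 559. The authors annotated 6322 DMSO end peaks (86.6%, 85.8 to 87.4) and 6088 FB23-2 end peaks (87.1%, 86.3 to 87.9) to the 3' UTR. Over all peaks the share was 57.3% in each list. Exons of noncoding RNA took 938 (12.9%) and 862 (12.3%), near the 13.0% and 12.8% of all peaks, and other classes 39 and 37. No end peak was annotated to an intron. A peak that holds the last base of a gene touches its last exon, so these classes follow largely from the rule.

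End peaks were shorter than other 3' UTR peaks and had higher folds. Their median span from border to border, introns included, was 371 bases in the DMSO list (quartiles 238 and 1103.5) and 350 in the FB23-2 list (225 and 1033), against 525 in both lists for 3' UTR peaks that end elsewhere, called internal. Their median log2 fold was 1.58 (quartiles 1.25 and 2.32) in the DMSO list and 1.54 (1.21 and 2.31) in the FB23-2 list, against 1.25 and 1.28 for internal 3' UTR peaks. Peaks that begin at the gene's 5' end had medians of 2.28 and 2.24. Internal peaks, here and below, include 3' UTR peaks ending 1 to 9 bases short of the gene end, unless they began at its 5' end. Of the 1711 DMSO and 1647 FB23-2 plus-strand peaks ending there, 83.8% and 84.4% were annotated to the 3' UTR. A log2 fold of at least 2 was reached by 2347 DMSO end peaks (32.2%; 29.2% of all peaks in the list) and 2177 FB23-2 end peaks (31.2%; 30.4% of all peaks), shares close to the background.

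Fold was higher at longer spans among the end peaks up to the class from 2000 to below 5000 bases, and it was also higher at longer spans among internal 3' UTR peaks. The median log2 fold was 1.07 in the DMSO list for spans from 100 to below 200 bases, 1.48 from 250 to below 500 bases, and 2.49 from 1000 to below 2000 bases. The FB23-2 medians for the same spans were 1.08, 1.46 and 2.62. In the 3 classes from 2000 bases upward the first had the highest median in each list, and the medians lay between 2.69 and 2.80 in the DMSO list and between 2.67 and 2.82 in the FB23-2 list. Internal 3' UTR peaks went from 0.92 in the DMSO list and 0.98 in the FB23-2 list for spans from 100 to below 200 bases to 2.07 and 2.13 for the longest. In every span class of either list the median of end peaks was above that of internal 3' UTR peaks. For spans from 250 to below 500 bases the internal medians were 1.04 and 1.07. Spans from 200 to below 250 bases held 1639 DMSO end peaks (22.5%) and 1640 FB23-2 end peaks (23.5%).

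**Figure D2:**
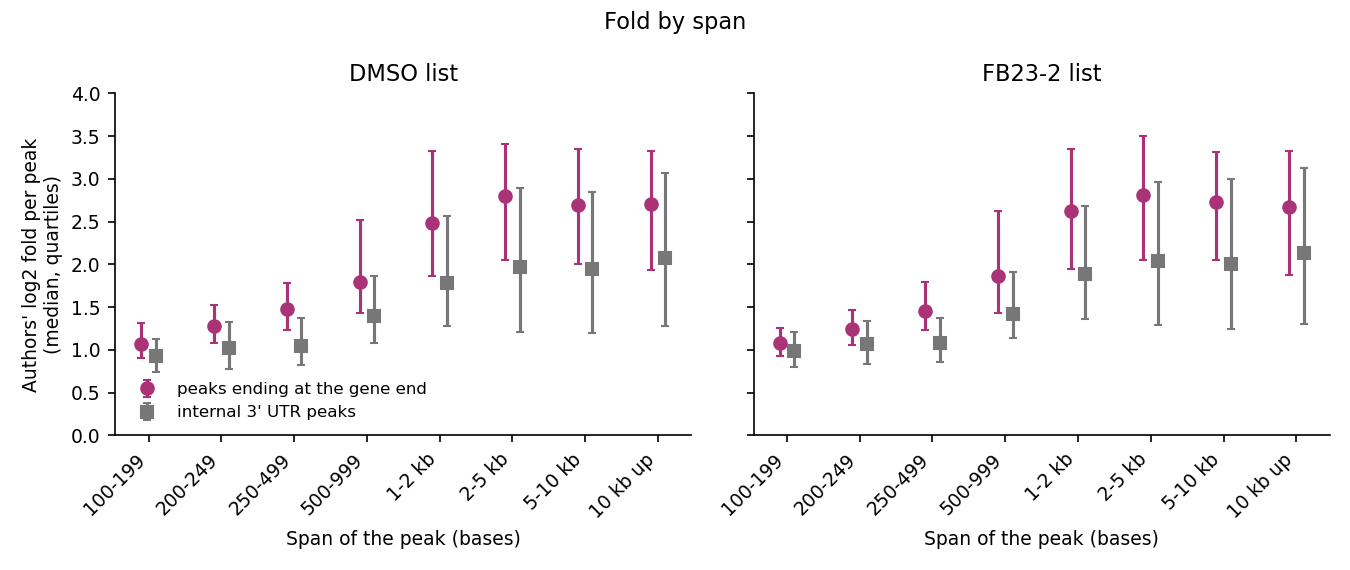
Authors' log2 fold per peak (y axis, points are medians and bars quartiles) by span of the peak (x axis, classes in bases) for peaks ending at the gene end and for internal 3' UTR peaks, in the DMSO and FB23-2 lists. End peaks lie above internal peaks in each class, with 1.48 against 1.04 from 250 to below 500 bases in the DMSO list.

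End peaks belonged mostly to protein-coding genes. Of the genes with a peak and coordinates, 7299 of 16158 had an end peak in the DMSO list (45.2%) and 6987 of 16003 in the FB23-2 list (43.7%). Among genes that a RefSeq table calls protein-coding the shares were 51.3% and 49.7%, among long noncoding RNA genes 24.4% and 23.5%, and among pseudogenes 27.1% and 26.5%. Pseudogene peaks are uncertain, since reads of a near-identical parent gene can be placed there. None of the 12 DMSO and 16 FB23-2 snoRNA genes with a peak had one at the gene end, which allows shares of up to 26.5% and 20.6% (exact 95% bounds).

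The share also differed by gene length and by the number of peaks. Genes from 5000 to below 20000 bases had an end peak in 51.5% of DMSO and 50.01% of FB23-2 cases, and genes of 100000 bases or more in 39.7% and 37.6%. Genes with a single peak had it at the gene end in 36.2% and 34.2% of cases. Genes with 2, 3, 4 or more peaks had an end peak in 48.3% to 51.3% of cases.

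Within genes of several peaks the end peak was often the one with the highest fold. In the DMSO list 5210 genes had an end peak and at least 1 other peak, and the end peak was the highest in 2248 (43.1%) and the lowest in 1098 (21.1%). In the FB23-2 list it was the highest in 1953 of 5012 (39.0%) and the lowest in 1307 (26.1%). In genes with exactly 2 peaks it was the higher in 1166 of 1889 (61.7%) and 1006 of 1799 (55.9%).

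The nearest peak upstream in the same gene lay a median of 1050 bases away in the DMSO list and 1039 in the FB23-2 list. Its median log2 fold was 1.16 against 1.49 for the end peak of the same genes in the DMSO list, and 1.23 against 1.44 in the FB23-2 list. The order was the other way at the gene start. Of 487 DMSO genes with peaks fixed at both the start and the end, the start peak was higher in 328 (67.4%), with medians of 2.01 and 1.48. In the FB23-2 list it was higher in 336 of 484 (69.4%), with medians of 2.08 and 1.44.

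Antisense neighbours were frequent at gene ends. A peak of the same list on the opposite strand overlapped 1527 DMSO end peaks (20.9%) and 1401 FB23-2 end peaks (20.1%), against 12.8% and 12.7% of internal 3' UTR peaks. In 449 and 406 cases that peak was itself the end peak of a gene on the other strand, so that the genes meet tail to tail. Whether the libraries kept strand is not given in the sources used here, and without strand the reads of such a pair cannot be told apart.

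End peaks were found in both lists more often than other peaks. To count as shared, a peak had to overlap one from the other list, on its own strand, over 50% or more of whichever span was shorter. All others were list-only. By this rule 397 DMSO end peaks (5.44%, 4.93 to 5.98; 20.1% of all peaks in the list) and 170 FB23-2 end peaks (2.43%, 2.08 to 2.82; 17.3% of all peaks) were list-only. Internal 3' UTR peaks were list-only in 19.7% and 16.7% of cases, and peaks fixed at the gene start in 6.65% and 9.07%. When the peaks had to overlap by 50% of both spans, the shares were 14.2% and 11.97% for end peaks, and 35.6% and 34.1% for all peaks. End peaks of a gene in both lists overlap by construction, because they share their last base, and this holds for start peaks likewise.

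Within classes of span the order was the same. For spans from 250 to below 500 bases 5.26% of DMSO and 2.80% of FB23-2 end peaks were list-only, against 18.6% and 15.4% of internal 3' UTR peaks. From 100 to below 200 bases the shares were 25.5% and 7.45%, against 55.9% and 48.9%. List-only end peaks had a median log2 fold of 1.30 in each list and a median span of 225 bases.

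An end peak was present in both lists in 6571 genes, which are 90.03% of the DMSO and 94.0% of the FB23-2 members. With the 3' border fixed, only the upstream border can differ. It was the same base in 2102 genes (32.0%, 30.9 to 33.1), lay within 25 bases in 3627 (55.2%) and within 100 bases in 5025 (76.5%). The FB23-2 peak was the shorter in 2776 genes (42.2%) and the longer in 1693 (25.8%), and 87.8% of the 4469 differences were multiples of 25 bases. The median difference was 0 bases. The median log2 fold over these genes was 1.59 in the DMSO list and 1.54 in the FB23-2 list.

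The excess of shorter FB23-2 peaks was seen in each class of span. Where the longer of the pair was under 250 bases, the FB23-2 peak was shorter in 28.6% and longer in 11.9% of 1420 genes. From 250 to below 500 bases the shares were 46.5% and 26.6% of 2146 genes, and for 1000 bases or more 46.0% and 30.7% of 1965. At the gene start, where 1046 genes had a peak fixed in both lists, the FB23-2 peak was shorter in 369 (35.3%) and longer in 287 (27.4%). With 1 list per treatment, a difference in depth or in peak calling between the lists cannot be told apart from the treatment.

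**Figure D3:**
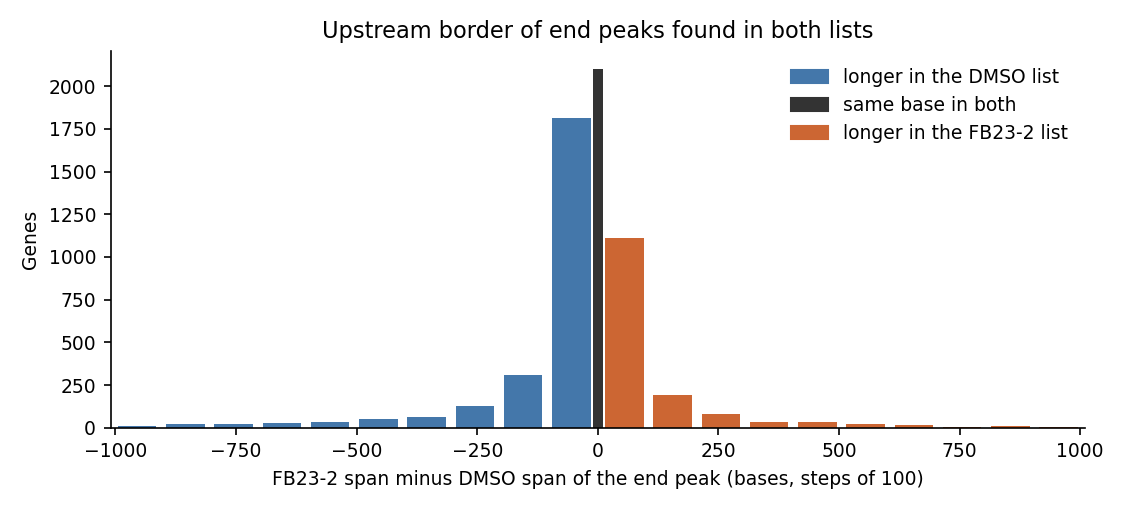
Number of genes (y axis) by the span of the FB23-2 end peak minus that of the DMSO end peak (x axis, steps of 100 bases), for genes with an end peak in both lists; the dark bar holds the 2102 genes with the same border. The bar for FB23-2 peaks shorter by up to 100 bases holds 1812 genes and its mirror image 1111; 286 genes shorter and 177 longer by over 1000 bases are not drawn.

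Where the borders were far apart, the rest of the region was often listed as a separate peak. Of the 286 genes whose FB23-2 end peak was shorter by over 1000 bases, 167 (58.4%) had another FB23-2 peak of the gene on the stretch that was missing. Of the 177 with a longer FB23-2 peak, 105 (59.3%) had another DMSO peak there. AHNAK, which encodes a large scaffold protein, is an example: its DMSO end peak spanned 82685 bases (log2 fold 1.55), and the FB23-2 list had an end peak of 250 bases (2.29) followed upstream by a peak of 82410 bases (1.53) after a gap of 25 bases. JPH3, encoding junctophilin 3, had the reverse, with a DMSO end peak of 370 bases (1.56) beside one of 42708 bases, and an FB23-2 end peak of 43278 bases (3.32). For differences of up to 100 bases such a second peak was rare, in 0.993% of 1812 shorter and 1.71% of 1111 longer cases.

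An end peak in 1 list alone was found in 728 genes for DMSO and 416 for FB23-2. Most of these genes had a peak elsewhere in the other list, 566 and 345, and in 243 and 193 genes one ended within 100 bases of the gene end. No peak of the gene was present in the other list in 162 and 71 genes, which is 2.22% and 1.02% of the members; over all genes with a peak the shares were 4.99% and 4.07%. Only 61.8% to 67.7% of these single-list end peaks were annotated to the 3' UTR, against 86.6% and 87.1% of all end peaks, and noncoding exons took 31.2% in the DMSO list and 36.3% in the FB23-2 list.

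The DMSO list-only end peaks with the smallest p-values are given as examples, with no count of their roles made. RPL8, encoding a ribosomal protein, had an end peak with a log2 fold of 1.06 and no peak in the FB23-2 list. TMSB10, encoding an actin-binding thymosin, had 1.14, MIF, a cytokine, 1.02, and COX6B1, a subunit of cytochrome c oxidase, 1.06, also with no FB23-2 peak. BSG, a membrane glycoprotein that accompanies lactate transporters, had 1.18, and ACTG1, a cytoplasmic actin, 0.87. The FB23-2 peak of ACTG1 ended 250 bases before the gene end (0.79).

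All of these folds were below the DMSO end-peak median of 1.58. KRT8, a keratin of simple epithelia, had an end peak of 0.81 in the DMSO list, and its nearest FB23-2 peak ended 51275 bases away. The gene as annotated in the table therefore ends far from its other peaks.

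The 8 corresponding genes of the FB23-2 list included 4 pseudogenes. PGAM1, a glycolytic enzyme, had an end peak of 1.33 at chr10:97433230-97433444 and no peak in the DMSO list. H1-2, a linker histone, had 1.13 over 100 bases, with a DMSO peak ending 425 bases before the gene end (1.01). MZT1, a component of the gamma-tubulin ring complex, had 0.85 over 225 bases. HMGB1P6, RPL21P16, RPS3AP6 and TPI1P1 are named as pseudogenes of abundant mRNAs, had folds of 0.91, 1.89, 0.93 and 1.19, and are uncertain for that reason.

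Both genes named as targets in the series title had an end peak in each list. ERBB3, an EGFR-family receptor that pairs with other ERBB kinases, had its end peak at chr12:56103295-56103505 in both lists, over the same 211 bases, with a log2 fold of 0.90 in the DMSO list and 1.44 in the FB23-2 list. In each list this was the lowest fold among the 4 peaks of the gene. TUBB4A, a beta-tubulin, had its end peak at chr19:6494319-6495243 in the DMSO list (2.47) and chr19:6494319-6495043 in the FB23-2 list (3.24), so that the FB23-2 peak was 200 bases shorter. It was the higher of the 2 peaks of the gene in each list. FTO had no end peak: its nearest peak ended 43865 bases before the annotated gene end in each list.

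Counts over gene lists are to be read against all genes with a peak, of which 45.2% had an end peak in the DMSO list and 43.7% in the FB23-2 list. Of 11 writer genes, all with a peak in both lists, 4 had an end peak in the DMSO list (36.4%, 10.9 to 69.2) and 3 in the FB23-2 list (27.3%, 6.02 to 61.0), and both intervals include the share over all genes. WTAP, the adaptor of the writer complex, spanned 14416 bases (2.45) in the DMSO list and 6500 bases (3.001) in the FB23-2 list. RBM15B, which recruits the complex to RNA, had 1.51 and 1.19. METTL3, the catalytic subunit, had a DMSO end peak at chr14:21498133-21498332 (0.97), and its closest FB23-2 peak ended 5737 bases away. METTL14, its partner, had a DMSO end peak at chr4:118715171-118715433 (1.16), and an FB23-2 peak there ended 88 bases short of the gene end (1.96). In the other direction, the writer gene ZC3H13 had an end peak in the FB23-2 list alone (0.93).

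Neither eraser had an end peak by the rule. ALKBH5 had a peak that ended 1 base short of the gene end in both lists, with a fold of 1.27 in each. Among 15 reader genes, 7 had an end peak in the DMSO list (46.7%, 21.3 to 73.4) and 8 in the FB23-2 list (53.3%, 26.6 to 78.7). Both intervals include the 45.2% and 43.7% over all genes. The 7 were in both lists, and HNRNPA2B1 was in the FB23-2 list alone. Over all end-peak genes 90.03% of the DMSO and 94.0% of the FB23-2 members were in both. YTHDF1 had 1.78 in the DMSO list and 1.81 in the FB23-2 list, and YTHDF3 had 1.09 and 1.33. Both are cytoplasmic readers, as is YTHDF2, which promotes decay of its targets and whose peak ended 4 bases short (3.75 and 3.83).

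Of 24 genes for cleavage and polyadenylation, which make the 3' end of mRNA, 15 had an end peak in each list (62.5%, 40.6 to 81.2; 45.2% and 43.7% of all genes with a peak). These were the same 15, where over all genes 90.03% of the DMSO and 94.0% of the FB23-2 members were in both lists, and no difference from that share was tested. The median log2 fold over the 15 was 1.43 in the DMSO list and 1.65 in the FB23-2 list, against 1.58 and 1.54 over all end peaks. The 4 genes named next lie above these medians. RBBP6, a cleavage factor with a ubiquitin ligase domain, had 3.24 and 3.32, and WDR33, which contacts the poly(A) signal, had 3.21 and 3.08. The WDR33 span was 2800 bases in the DMSO list and 750 in the FB23-2 list. CPSF7, a subunit of cleavage factor I, had 1.97 and 2.14, and PABPN1, the nuclear poly(A)-binding protein, had 1.85 and 1.90. The interval of the share includes the background.

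Of 30 deadenylation and decay genes, 18 had an end peak in the DMSO list and 16 in the FB23-2 list, all 16 in both. The intervals of these shares, 40.6 to 77.3% and 34.3 to 71.7%, include the 45.2% and 43.7% over all genes. The DMSO-only ones were CNOT3, a subunit of the CCR4-NOT deadenylase, and EDC3, an enhancer of decapping. Median log2 folds over the list were 1.32 and 1.38, against 1.58 and 1.54 for all end peaks. The highest were in DDX6, a decay helicase, with 2.05 and 1.89 over the same 500 bases. ZFP36L1 and ZFP36L2, which bind AU-rich elements in 3' UTRs, had 1.68 and 1.57 in the DMSO list and 1.42 and 1.36 in the FB23-2 list.

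Growth signalling and tubulin genes lay close to the background. In the ERBB, PI3K and MAPK list 24 of 46 genes had an end peak in the DMSO list (52.2%) and 25 in the FB23-2 list (54.3%), with 45.2% and 43.7% over all genes. Median log2 folds over these end peaks were 1.64 and 1.44, against 1.58 and 1.54 for all end peaks. TSC1, an inhibitor of mTOR signalling, had 3.46 and 3.57, and MTOR itself 2.11 and 2.06. Of 36 tubulin and tubulin-folding genes, 19 had an end peak in each list, 18 of them shared. Their medians were 1.70 and 1.80, and the genes named next lie above them. TBCC, a tubulin-folding cofactor, had 4.08 and 3.92, TUBB6 3.83 and 3.84, and TUBA1B 1.98 and 2.07.

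**Figure D4:**
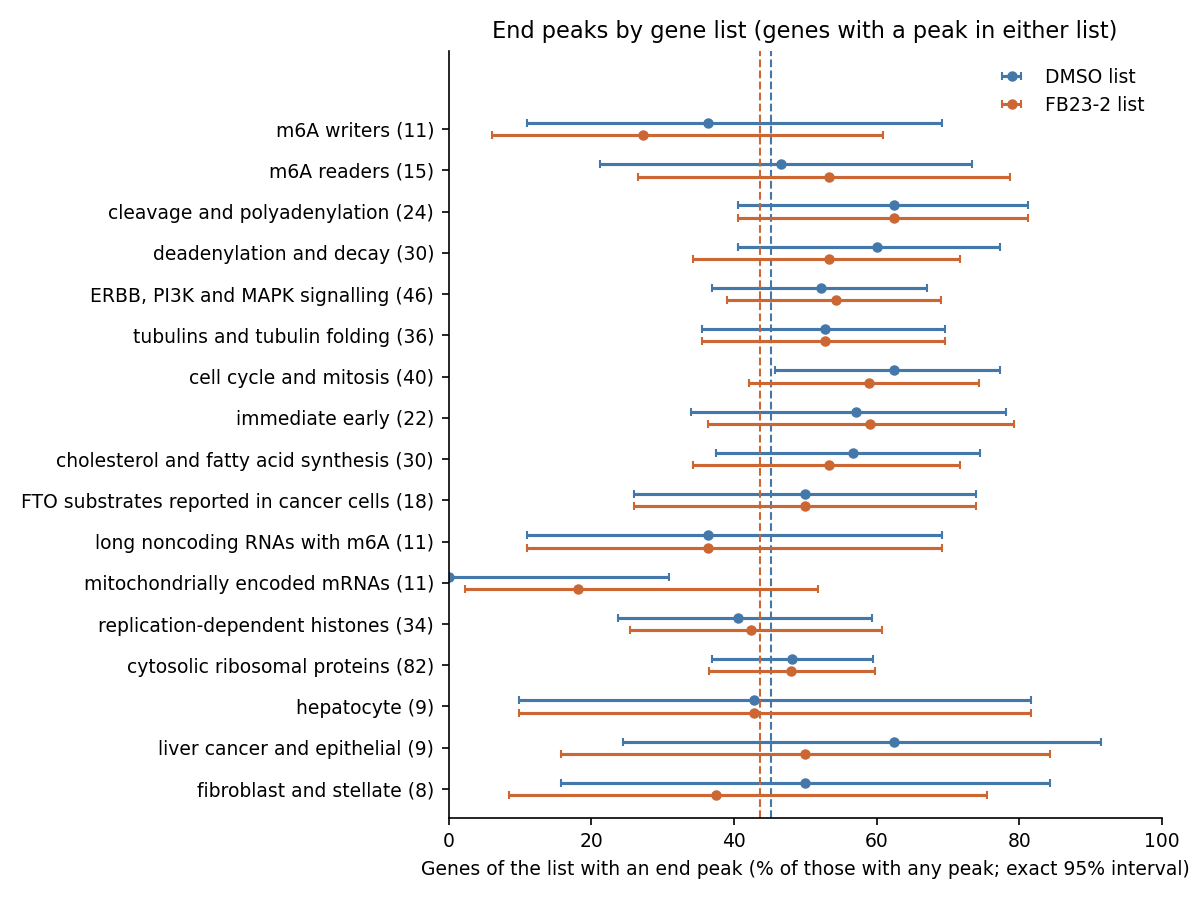
Share of the genes of each list that had an end peak (x axis, per cent of the genes with any peak, exact 95% intervals) in the DMSO and FB23-2 lists; numbers in brackets are genes with a peak in either list, for lists of 7 or more in the DMSO list. Dashed lines mark the share over all genes, 45.2% and 43.7%, which lies inside the interval of every list drawn except cell cycle and mitochondrially encoded mRNAs in the DMSO list.

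Immediate early genes, which respond to growth factors within minutes and have short-lived mRNAs, had an end peak in 12 of 21 genes in the DMSO list (57.1%; 45.2% of all genes) and 13 of 22 in the FB23-2 list (59.1%; 43.7%). Their median log2 folds were 2.36 (range 1.17 to 4.87) and 2.24, where the medians of all end peaks were 1.58 and 1.54. JUN, a subunit of AP-1, had 4.87 and 4.92 over the same 3250 bases at chr1:58780791-58784040. JUND had 3.04 and 2.86, and KLF4, a zinc-finger factor, had 2.95 and 2.77. IER3 met the rule in the FB23-2 list alone, because its DMSO peak at the gene end covered the whole gene.

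Transcripts reported elsewhere as FTO substrates in cancer cells had end peaks in the same 9 of 18 genes in each list, with an interval of 26.0 to 74.0% that includes the 45.2% and 43.7% over all genes. Membership in both lists was likewise common over all end-peak genes, at 90.03% of the DMSO and 94.0% of the FB23-2 members. CEBPA, a myeloid and liver transcription factor, had 3.73 and 3.94, and CXCR4, a chemokine receptor, had 3.57 and 3.72. PKM, a pyruvate kinase, had 1.46 and 1.66, and ULK1, an autophagy kinase, had 2.36 over 1795 bases in the DMSO list and 2.29 over the same bases in the FB23-2 list. The median over the 9 genes was 2.36 in the DMSO list and 2.29 in the FB23-2 list, against 1.58 and 1.54 over all end peaks.

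**Figure D5:**
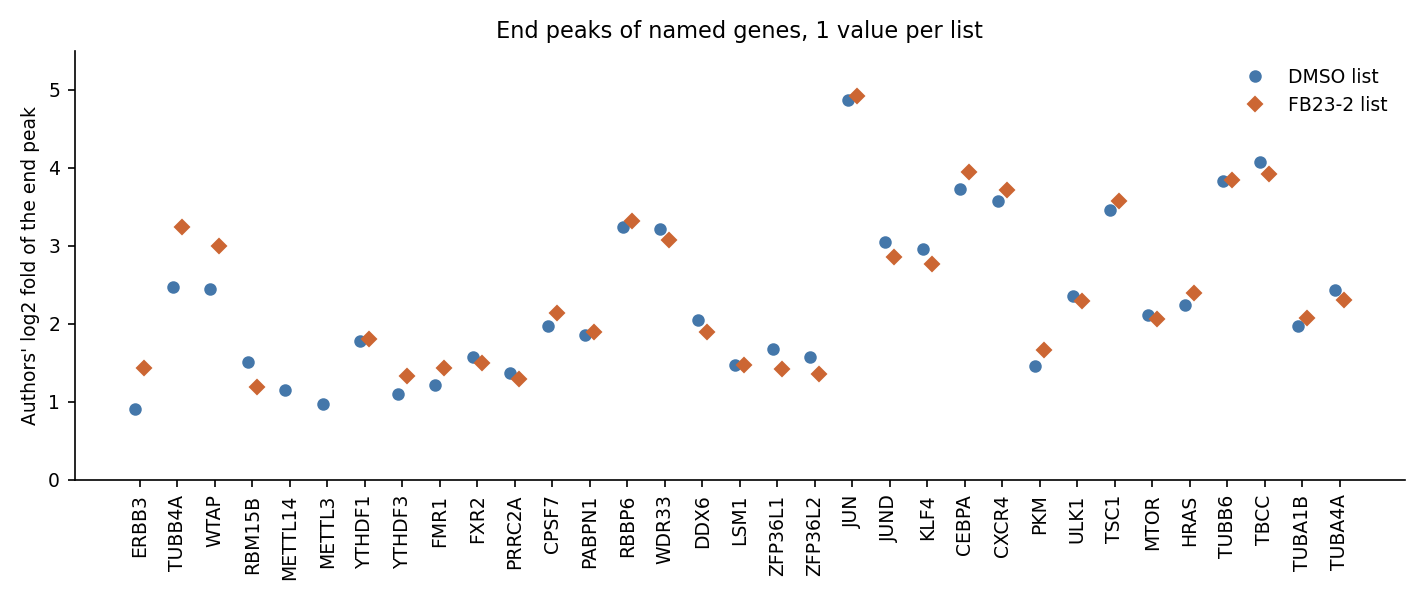
Authors' log2 fold of the end peak (y axis) for named genes (x axis) in the DMSO list (circles) and the FB23-2 list (diamonds), 1 value per list with no replicate error. METTL14 and METTL3 have a DMSO value only, and ZC3H13, with an end peak in the FB23-2 list only, is not drawn. JUN lies highest, at 4.87 and 4.92, and ERBB3 has 0.90 and 1.44.

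Of the cell cycle genes 25 of 40 had an end peak in the DMSO list (62.5%, 45.8 to 77.3; 45.2% of all genes) and 23 of 39 in the FB23-2 list (59.0%, 42.1 to 74.4; 43.7% of all genes). The DMSO interval lies just above the share over all genes and the FB23-2 interval includes it. Their median log2 folds were 1.35 and 1.28, against 1.58 and 1.54 for all end peaks. MCM3, part of the replicative helicase, had 3.03 and 2.99, and AURKA, a mitotic kinase, had 2.13 and 2.16. Of 30 genes for cholesterol and fatty acid synthesis, 17 and 16 had an end peak (56.7% and 53.3%; 45.2% and 43.7% of all genes). Median log2 folds over these were 1.57 and 1.48. SCAP, the sterol sensor that escorts SREBP, had 3.06 and 2.85, and ACLY, which makes cytosolic acetyl-CoA, had 1.65 and 1.64 over the same 300 bases.

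Replication-dependent histone mRNAs, which end in a stem-loop in place of a poly(A) tail, had an end peak in 13 of 32 genes in the DMSO list (40.6%) and 14 of 33 in the FB23-2 list (42.4%), near the 45.2% and 43.7% over all genes. Poly(A) RNA was used and the list was made by gene name, so whether these peaks lie on transcripts without a tail cannot be told. Median log2 folds of these end peaks were 1.72 and 2.19. The highest were in H2BC8, encoding a histone H2B, with 3.68 and 3.90. Mitochondrially encoded mRNAs had none in 10 genes in the DMSO list and 2 in 11 in the FB23-2 list. MT-CO3, a cytochrome c oxidase subunit, was one of these (1.07), and its DMSO peak ended 100 bases short of the gene end (0.89). MT-CYB, cytochrome b, was the other (1.84), and its DMSO peak covered the whole gene (1.89).

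Ribosomal protein genes had an end peak in 39 of 81 genes in the DMSO list (48.1%) and 37 of 77 in the FB23-2 list (48.1%), 34 of them in both. These shares are near the 45.2% and 43.7% over all genes. Their folds ran from 0.72 to 2.29 and from 0.76 to 2.23. RPL24 had the highest, with 2.29 and 2.23. Among long noncoding RNAs known to carry m6A, the same 4 of 11 had an end peak in each list (36.4%, 10.9 to 69.2), an interval that includes the share over all genes. NORAD, which binds Pumilio proteins, had 1.40 over 1400 bases and 1.61 over 450 bases, and HOTAIR had 2.13 and 2.37.

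Several end peaks with the highest folds among those with a p-value deposited as 0 are given with their fold in each list. PMEL, a melanosome matrix protein, had 9.23 in the DMSO list and 9.09 in the FB23-2 list over the same 11983 bases, chr12:55954105-55966087. SDHAF1, an assembly factor of succinate dehydrogenase, had 5.26 and 5.34 over the same 1075 bases. HPS6, of a lysosome-related organelle complex, had 5.07 and 5.17, and GGCX, a vitamin K-dependent carboxylase, had 5.02 and 5.01. DAPK3, a death-associated protein kinase, had 4.84 over 2880 bases and 5.09 over 1376 bases. A p-value of 0 was deposited for 15.8% of DMSO and 14.7% of FB23-2 end peaks, and ties were ranked by fold.

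Markers of cell type can be read from a peak list only where a transcript is both present and methylated. Of 29 hepatocyte genes 7 had a peak in each list, and 3 of the 7 an end peak (42.9%, 9.90 to 81.6), which includes the share over all genes. CPS1 and ASS1, enzymes of the urea cycle, had end peaks of 1.38 and 1.17 in the DMSO list and 1.29 and 1.10 in the FB23-2 list. Of 12 liver cancer and epithelial genes, 8 had a peak in the DMSO list, and 5 of these an end peak (62.5%, 24.5 to 91.5). In the FB23-2 list 4 of 8 had one (50%, 15.7 to 84.3), and 3 genes had one in both lists. Both intervals include the share over all genes. KRT18, a keratin of simple epithelia, had 1.46 and 1.34, while EPCAM, SOX9 and SPP1 had no end peak in either list. Among fibroblast and stellate cell genes with a peak, 4 of 8 had an end peak in the DMSO list (50%, 15.7 to 84.3). In the FB23-2 list 3 of 8 had one (37.5%, 8.52 to 75.5). Both intervals include the 45.2% and 43.7% over all genes. COL1A1 had 2.57 and 2.35. Of the leukocyte genes, 4 had a peak in the DMSO list and 3 in the FB23-2 list. Only CD14 had an end peak, with 3.91 and 3.60. The end peak of ACTA2, a smooth muscle actin, was in the DMSO list alone (2.72), where its FB23-2 peak ended 50 bases short of the gene end (2.94).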

How the data were processed

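MeRIP-seq peak tables of 3 DMSO and 3 FB23-2 samples of MHCC97H were used. Fragmented poly(A) RNA was precipitated with an m6A antibody, per the labels' protocols. HISAT2, Cuffdiff and the GRCh38 build are listed in the submitters' processing notes. Which peak caller, tool versions, strand kit and pooling were used is not given in the sources used here. For each treatment the authors deposited 1 table with their own log2 fold, p-value and adjusted p-value beside the position of each peak. Per the file headers the 2 sides of the fold are not named.

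Positions are printed 1-based; deposited starts count from 0. No exon blocks were in the tables, so genomic span, introns included, replaced the exonic lengths that had been planned. A total of 74 DMSO and 69 FB23-2 peaks without gene coordinates could not be members. Overlaps used bedtools 2.31.1 with at least 50% of the shorter span, and shares carry exact Clopper-Pearson 95% intervals. RefSeq tables (GRCh38.p14) gave biotypes, matching 14286 of 16810 gene identifiers, and sequences. No genome was used, so motifs were searched only inside RefSeq promoter windows. In 3092 of 10865 genes the deposited gene start equalled the RefSeq start. The end rule, the overlap rule and the border comparison were tested on copies of the DMSO list with known changes. The software was matplotlib 3.10.9, scipy 1.17.1, pandas 2.3.3 and numpy 2.4.6 on Python 3.11.15.

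The members, the 21 gene lists and the rule for named genes were chosen with earlier results of these data known. The rule took 10 genes always (ERBB3 and TUBB4A, the erasers FTO and ALKBH5, the writers METTL3, METTL14 and WTAP, and the readers YTHDF1 to YTHDF3), then per list the 8 end peaks and the 8 list-only end peaks of lowest p (ties by fold), the 5 longest spans, the 5 largest border differences in each direction, up to 4 members per gene list, and up to 3 peaks just short of the gene end. Genes of the sequence paragraphs, the microRNA hosts, HNRNPA2B1, ZC3H13, CNOT3 and EDC3 were named outside this rule, after their values were seen. A few genes that the rule names are not reported here. Alternatives were other distances to the gene end, an adjusted p under 0.001, a log2 fold of at least 2, restriction to the 3' UTR class or to protein-coding genes, and other overlap rules.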

Additional observations from a re-analysis of the deposited data

How the results depend on the processing

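No paired analysis was possible because each treatment has 1 pooled peak list whose columns name no sample; leaving out a replicate was not possible for the same reason, and overlap on exon blocks was not run because the tables hold none. A share or median was called moved when it lay outside the interval of the main value. Counts had a wider allowance: 7299 DMSO end peaks becoming 9965 within 100 bases of the gene end was called stayed. Across the alternatives 59 main values moved and 32 stayed. All are counts, shares or positive medians, so none could change sign. Of the values for gene lists and single genes 45 moved and 99 stayed. Of the moved ones 41 were at a log2 fold of at least 2, and 4 were ALKBH5 and YTHDF2 with ends within 10 bases. The causes were not tested.

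Ending within 10, 50 or 100 bases of the gene end made 20.9%, 22.2% and 23.3% of DMSO peaks and 20.5%, 21.7% and 22.8% of FB23-2 peaks end peaks. An adjusted p under 0.001 gave 18.7% and 17.7% with median folds of 1.60 and 1.55. A log2 fold of at least 2 left 2347 (18.8%) and 2177 (17.1%), with median folds of 2.91 and 2.93, median spans of 1389 and 1327 bases, 74.5% and 74.6% in the 3' UTR, and 49 and 50 gene-list members against 218 and 214. The 3' UTR class alone gave 25.8% and 25.4% of its peaks, folds of 1.52 and 1.48 and spans of 348.5 and 325 bases, with the 3' UTR share fixed at 100%. Protein-coding genes gave 1.52 and 1.48, an FB23-2 span of 325, and 99.3% and 99.4% in the 3' UTR.

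The list-only share of end peaks was 14.2% for DMSO and 11.97% for FB23-2 with reciprocal overlap, 4.75% for DMSO with strand ignored, and 9.97% and 5.95% by gene and gene end. It was 6.24% and 3.50% at an adjusted p under 0.001 in both lists, 4.84% and 1.95% with that limit in 1 list, 13.2% and 9.003% at a log2 fold of at least 2, 7.93% and 3.69% with the 33470 most significant peaks of each list, and 4.44% and 1.68% in the 3' UTR class. It was higher for DMSO in each of these pairs.

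The same upstream border was found in 55.2%, 65.1% and 76.5% of genes within 25, 50 and 100 bases, and in 28.1% at a log2 fold of at least 2. Genes with an end peak in 1 list numbered 476 for DMSO at a log2 fold of at least 2, and 394 and 166 where any overlap counted as present. The FB23-2 number was 260 in the 3' UTR class and 260 in protein-coding genes. For DMSO it was 494 in each of these, against 728 by the main rule, which was called stayed.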

Other observations

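Some end peaks contained a microRNA hairpin. With introns included, a RefSeq hairpin on the same strand lay inside the end peak of 11 genes in each list. ATF5, a stress-response transcription factor, had its hairpin MIR4751 in an end peak of 1092 bases at chr19:49932844-49933935 in both lists, with log2 folds of 2.74 in the DMSO list and 2.56 in the FB23-2 list. AOPEP, an aminopeptidase gene, contained MIR24-1 in an end peak of 1229 bases in the DMSO list (log2 fold 3.06) and 1204 bases in the FB23-2 list (log2 fold 2.77). DDIT3, another stress-response factor, contained MIR616 in the FB23-2 list alone, in an end peak of 3852 bases (log2 fold 2.63).

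A few end peaks covered long genomic spans. TMEM117, a transmembrane protein gene, had an end peak of 315950 bases in the DMSO list (log2 fold 3.43) and 306094 bases in the FB23-2 list (log2 fold 3.41). BASP1, a brain-abundant membrane protein gene, had one of 187749 bases over the same coordinates in both lists (log2 folds of 2.67 and 2.52). How much of such a span was exon cannot be told from the tables, which hold no exon blocks.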
